A study of Drosophila melanogaster with 22 samples.

Results

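The genes described here encode the nuclear subunits of the mitochondrial oxidative phosphorylation machinery of Drosophila melanogaster. Members were taken by FlyBase symbol: every gene whose symbol starts with ND-, Sdh, UQCR-, COX or ATPsyn, plus RFeSP, Cyt-c1 and Cyt-c-p. This gave 91 of the 18068 genes in the Illumina tables, and 90 of the 13853 genes with a read in a nanopore library. They comprise 66 main subunits (34 of complex I, 4 of complex II, 8 of complex III, 8 of complex IV, 11 of complex V, and cytochrome c itself), 24 paralogs whose symbols end in L or L with a number, and the complex II assembly factor Sdhaf3. Subunits with other kinds of name, such as blw (ATP synthase alpha), levy, cype and ox, fall outside the rule and were not counted.

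Complexes I to IV form the electron transport chain of the inner mitochondrial membrane. Complex I (NADH dehydrogenase, the ND- genes) and complex II (succinate dehydrogenase) pass electrons to ubiquinone, complex III (the UQCR- genes, RFeSP and Cyt-c1) passes them on to cytochrome c, and complex IV (cytochrome c oxidase) passes them to oxygen. Complexes I, III and IV pump protons, and complex V (ATP synthase) makes ATP from the returning flow. The Drosophila genome also holds duplicate copies of many such subunits that are used mainly in the testis.

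The series measured mRNA of larvae of the laboratory strain OreR in circulating hemocytes (blood) and in the lymph gland, the larval blood-forming organ. The nanopore libraries made with the SQK-PCB109 kit were of blood at 120 h after egg laying, 48 h after wasp infestation (3 infested) and without it (2 normal), of blood at 96 h, 24 h after infestation (3 infested) and without it (2 normal), and of lymph glands at 96 h (3 infested, 3 normal). A further nanopore library, made with another kit, held normal lymph glands at 120 h, and 5 Illumina libraries held 1 condition each: the 4 blood conditions and 96 h infested glands. Cells or glands of several larvae were pooled in each library, and blood was released by vortexing whole larvae with glass beads; no label says which replicates were collected separately, so p-values measure the spread between these samples, which may be technical.

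Library totals lay between 356632 and 2079764 gene counts in the 16 libraries tested, 6223590 in the 120 h lymph gland and 14750855 to 24307061 expected counts with Illumina. The tissue labels held against their markers. The 3 prohemocyte markers (Tep4, dome, Ance) summed to 198 to 211 CPM in normal 96 h blood and to 2747 to 3140 CPM in normal 96 h glands, and the 7 plasmatocyte markers (Hml, Pxn and others) to 5825 to 5864 CPM in normal 96 h blood and to 1737 to 2048 CPM in normal 96 h glands. The 7 lamellocyte markers, of the large hemocytes that wrap wasp eggs, summed to 4542 to 8211 CPM in 120 h infested blood and to 252 to 261 CPM in 120 h normal blood. The Illumina library labelled 120 h normal blood stood apart from the others: its plasmatocyte markers summed to 11283 CPM, against 65922 CPM in 96 h normal blood, and its 15 male germline markers to 2435 CPM.

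Per transcript length, the ATP synthase and cytochrome c oxidase genes were the most abundant members. Over the 5 Illumina libraries the median level of the main subunits was 576 TPM in complex V, 609 TPM in complex IV, 304 TPM in complex III, 145 TPM in complex II and 150 TPM in complex I. TPM is a relative level per transcript length, so members can be compared on it. ATPsynC (FBgn0039830), which encodes the subunit of the membrane ring, had the highest median at 1965 TPM, followed by the catalytic subunit ATPsynbeta at 1062 TPM. In complex I, ND-MLRQ led at 802 TPM and ND-AGGG followed at 513 TPM; the mammalian counterpart of ND-MLRQ is regarded as a complex IV subunit. SdhA, the flavoprotein of succinate dehydrogenase, was low at 87.8 TPM, and ND-B8 was near absent at a median of 0.31 TPM. Its highest level was 4.88 TPM, in the 120 h normal blood library that stood apart, against 0 to 0.98 TPM in the others. By nanopore it had 8, 9 and 4 reads in 120 h infested blood and no read in glands. It was counted as a main subunit by its symbol. ND-B8 was the 1 main subunit that did not pass the filter on low counts in the nanopore data, where 65 of 66 main subunits, 8 of 24 paralogs and Sdhaf3 were tested, 74 members in all.

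**Figure D1:**
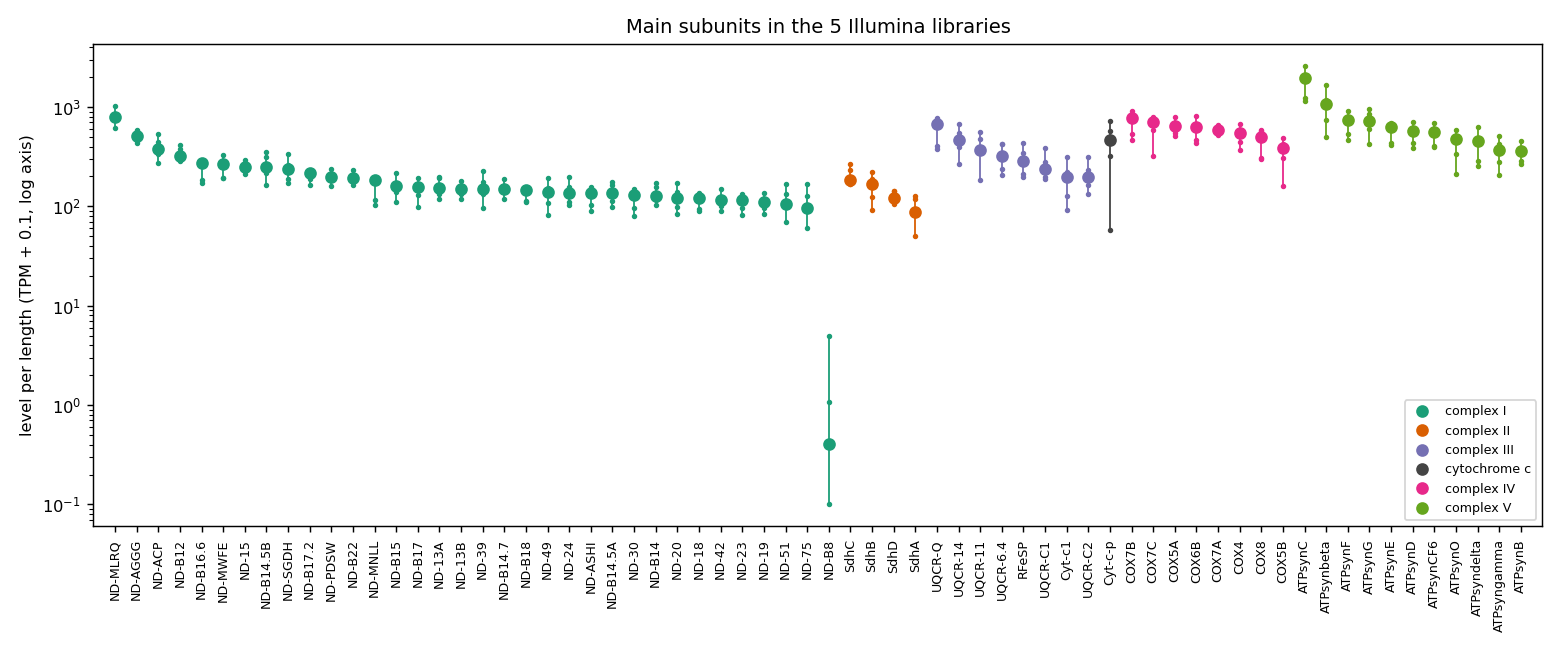
Level per length of the 66 main subunits in the 5 Illumina libraries (TPM + 0.1, log axis; small points are libraries, the large point their median, the line their range), by complex. ATPsynC lies highest with a median of 1965 TPM, and ND-B8 lies far below the other subunits at 0.31 TPM.

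Among the nanopore groups, the summed level of the main subunits and cytochrome c was lowest in 120 h infested blood. On the CPM scale (read counts relative to library size, here scaled by TMM, edgeR's correction for library composition) they summed to 21852 ± 314 CPM in 120 h infested blood (SD, n = 3), 26644 ± 49.3 CPM in 120 h normal blood (n = 2), 32699 ± 550 CPM in 96 h infested blood (n = 3) and 32333 ± 72.4 CPM in 96 h normal blood (n = 2). The 96 h glands stood at 34508 ± 1080 CPM when infested and 33392 ± 964 CPM when normal (n = 3 each). Thus the 120 h blood libraries lay below every 96 h library, and the infested ones below the normal ones, while infested and normal 96 h libraries overlapped in glands and in blood. On plain library totals the 120 h blood groups overlapped, since replicate 1 of 120 h infested blood then stood at 26995 CPM and the 120 h normal libraries at 24379 and 24466 CPM. The Illumina sums were 7844 CPM in 120 h infested blood and 7564 CPM in 120 h normal blood, the library that stood apart. By complex, the sum in 120 h infested blood stood to that in 96 h infested blood as 0.635 in complex V, 0.654 in complex III, 0.674 in complex IV, 0.698 in complex I and 0.767 in complex II. These sums are a description with no test, and in bulk samples fewer cells of a type and less RNA per cell cannot be told apart.

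**Figure D2:**
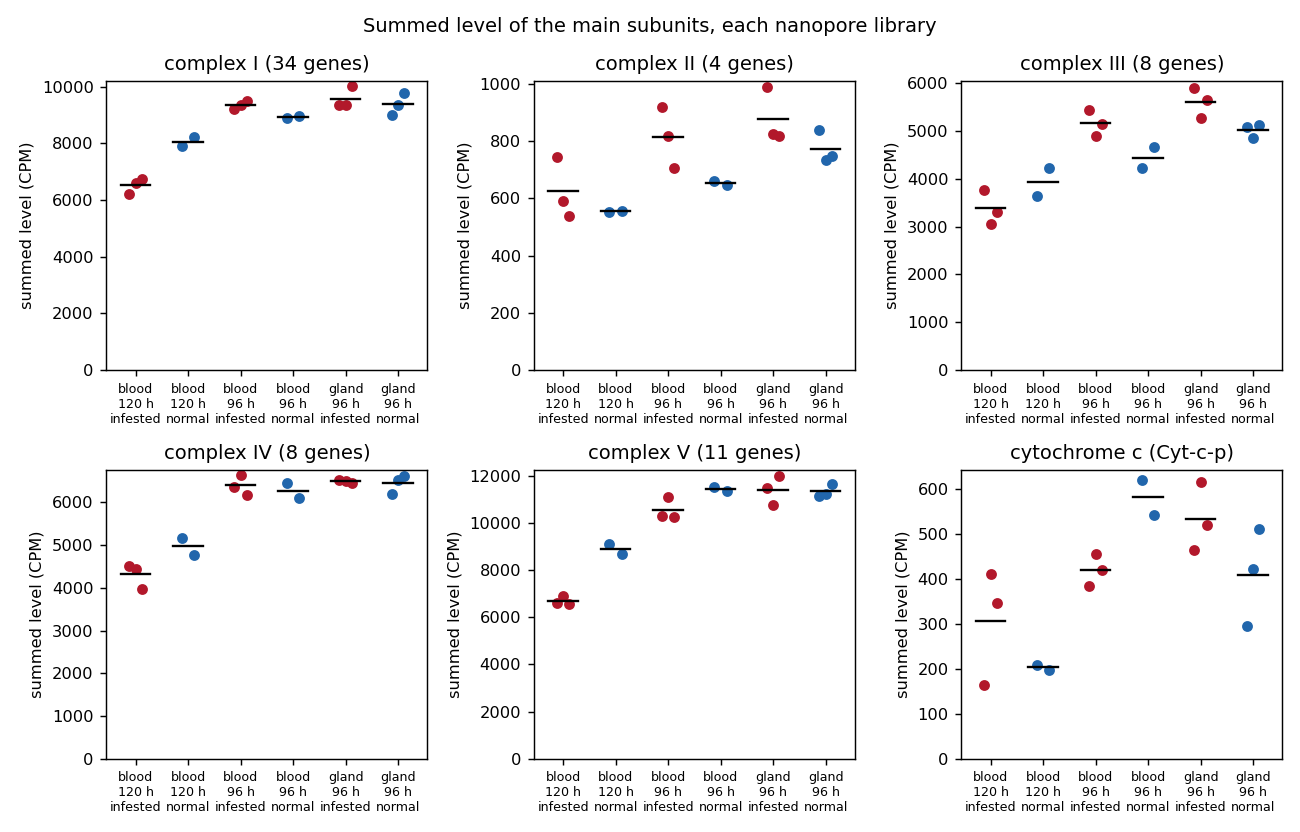
Summed level (CPM, TMM-scaled) of the main subunits of each complex and of cytochrome c in every nanopore library of the SQK-PCB109 kit; points are libraries, lines group means, red is infested and blue normal. Complexes I, IV and V are lowest in the 3 libraries of 120 h infested blood, while complexes II and III and cytochrome c overlap with 120 h normal blood.

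Age in blood of infested larvae, 120 h over 96 h, gave most of the calls. The contrast is called age here, but its groups also differ in time after infestation, 48 h against 24 h. Age and time after infestation thus cannot be told apart in it. Of 65 main subunits tested, 42 were lower at 120 h, none was higher and all 65 had a log2 change below 0, with a median of -0.55 (edgeR quasi-likelihood test, adjusted over 7076 genes). Of all genes tested, 9.37% were lower, 15.0% higher and 24.4% called in either direction, with a median of 0.07. All 3 libraries at 120 h lay below all 3 at 96 h for 48 of the 65 main subunits, against 15.3% of all genes tested. The calls covered 10 of 11 subunits of complex V, 7 of 8 of complex IV, 6 of 8 of complex III, 18 of 33 of complex I and 1 of 4 of complex II, and cytochrome c was not called.

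In complex V, ATPsynE (FBgn0038224), a small membrane subunit that joins ATP synthase dimers in yeast and mammals, had 401, 453 and 471 CPM at 120 h infested, against 791, 855 and 779 CPM at 96 h infested. All 3 libraries at 120 h were far below those at 96 h (log2 change -0.86 ± 0.12 SE, adjusted p = 0.000167, edgeR). ATPsyndelta, of the central stalk, had 333, 427 and 373 CPM at 120 h infested and 638, 728 and 624 CPM at 96 h infested, a change of -0.80 ± 0.13 (adjusted p = 0.000586, edgeR). ATPsynO, of the peripheral stalk, changed by -0.81 ± 0.20 and ATPsynG by -0.75 ± 0.13. ATPsynC had 732, 1323 and 1225 CPM at 120 h infested and 1554, 2057 and 1846 CPM at 96 h infested, with replicate 1 apart from the other 120 h libraries (-0.73 ± 0.23, adjusted p = 0.029, edgeR). Its call was lost without replicate 1 at 120 h (adjusted p = 0.103, edgeR), replicate 2 at 96 h (0.115) or replicate 3 at 96 h (0.0727). ATPsynbeta, the most abundant member after ATPsynC, had 754, 1213 and 1295 CPM at 120 h infested and 1254, 1584 and 1476 CPM at 96 h infested. These overlapped, and it did not pass (adjusted p = 0.226, edgeR).

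In complex III, UQCR-6.4, a small subunit of the bc1 complex, showed the largest change of any main subunit. It had 451, 355 and 372 CPM at 120 h infested, against 749, 742 and 724 CPM at 96 h infested, with no overlap (-0.90 ± 0.13, adjusted p = 0.000156, edgeR). RFeSP, the Rieske iron-sulfur protein, changed by -0.69 ± 0.14 and UQCR-Q by -0.77 ± 0.16. Cyt-c1, the haem subunit that hands electrons to cytochrome c, had 207, 143 and 134 CPM at 120 h infested and 378, 267 and 202 CPM at 96 h infested, where the groups overlap (-0.81 ± 0.25, adjusted p = 0.025, edgeR). That call was lost without replicate 1 at 96 h (adjusted p = 0.133, edgeR), replicate 2 at 120 h (0.105) or replicate 3 at 120 h (0.0907). UQCR-11 was at 1033, 946 and 1310 CPM at 120 h infested and 1347, 1144 and 1750 CPM at 96 h infested, which overlap, and UQCR-14 changed by -0.64 ± 0.14 (adjusted p = 0.0031, edgeR).

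Among the other complexes, COX8 of cytochrome c oxidase had 772, 699 and 601 CPM at 120 h infested and 1130, 1185 and 1061 CPM at 96 h infested (-0.70 ± 0.15, adjusted p = 0.00303, edgeR). COX7C, the other leading complex IV member, did not pass (-0.42 ± 0.17, adjusted p = 0.0889, edgeR). In complex I, ND-B14.5A had 129, 153 and 135 CPM at 120 h infested, against 216, 280.1 and 249 CPM at 96 h infested (-0.83 ± 0.17, adjusted p = 0.00258, edgeR), and ND-PDSW changed by -0.68 ± 0.13. The leading complex I members ND-MLRQ (-0.67 ± 0.26) and ND-AGGG (-0.35 ± 0.29) did not pass. SdhB, the iron-sulfur protein of succinate dehydrogenase, was the 1 complex II subunit called, at 149.9, 127 and 126 CPM at 120 h infested and 230.3, 204 and 180.3 CPM at 96 h infested (-0.61 ± 0.14, adjusted p = 0.00597, edgeR). SdhC (-0.38), SdhD (-0.22), SdhA (-0.21) and the assembly factor Sdhaf3 (-0.17) did not pass. Sdhaf3 stood at 33.3, 25.6 and 15.97 CPM at 120 h infested and 26.8, 22.4 and 39.3 CPM at 96 h infested, groups that overlap. The 30 lower main subunits after the 12 with the largest changes ranged between -0.68 and -0.41, and the 23 that did not pass between -0.67 and -0.15.

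**Figure D3:**
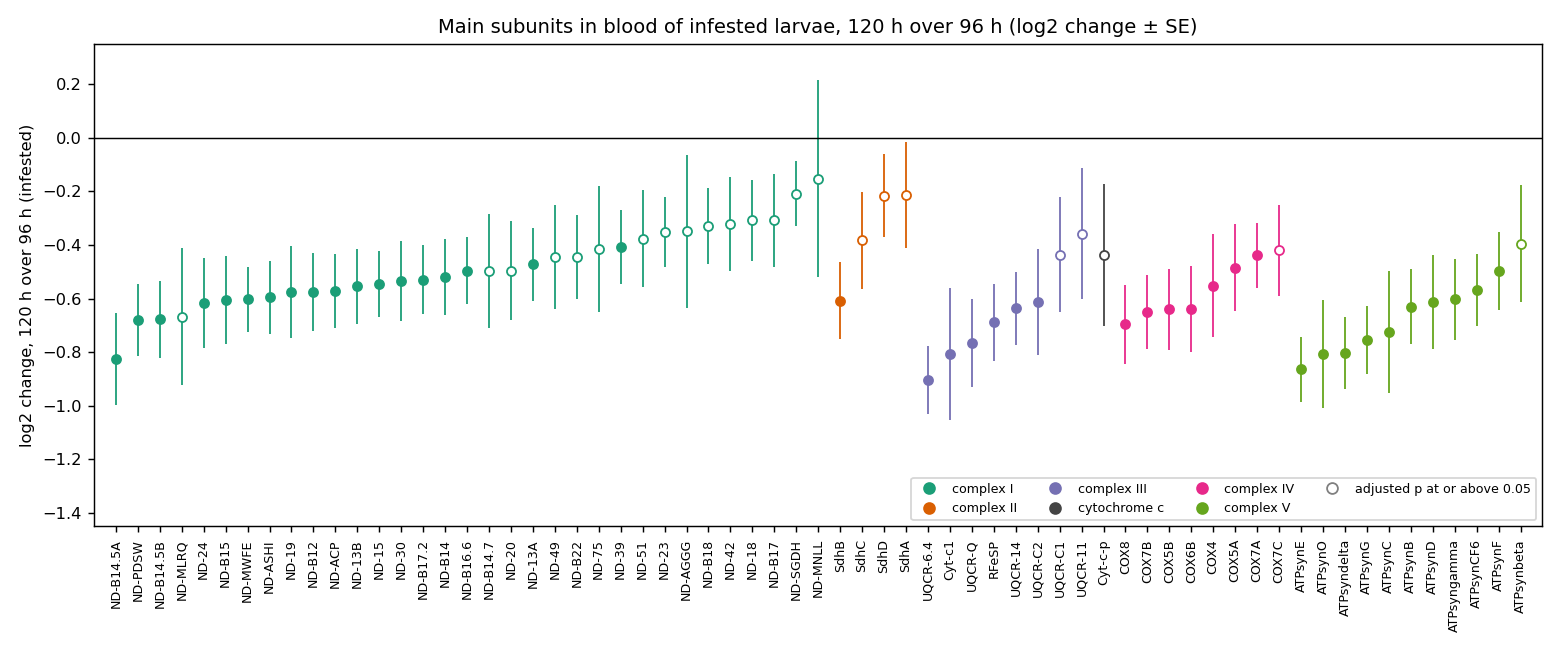
Log2 change of the 65 main subunits tested in blood of infested larvae, 120 h over 96 h, with SE, by complex; filled points passed adjusted p 0.05 (edgeR quasi-likelihood test). All 65 points lie below 0, and UQCR-6.4 lies lowest at -0.90.

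With the replicate number as a block, 9 more main subunits were lower and the 50 called members stayed called. The block is shared by all groups of the fit, glands among them, and no label says that the numbers pair libraries. Among those named above, ND-MLRQ (-0.68 ± 0.12, adjusted p = 0.000841), COX7C (-0.42 ± 0.10, 0.00675), UQCR-11 (-0.35 ± 0.09, 0.0121), SdhC (-0.39 ± 0.12, 0.0208) and ND-AGGG (-0.36 ± 0.12, 0.0341) then passed (edgeR). Of the 42 lower main subunits without the block, 27 stayed called when each of the 6 libraries compared was left out in turn. When replicates 2 and 3 of each blood group were summed into 1 sample, the infested groups compared here kept 2 samples each. The normal blood groups kept 1 each. Then 6 main subunits passed: UQCR-6.4, ATPsynE, ATPsynG, ATPsyndelta, ND-B14.5B and ND-PDSW. The Illumina libraries, 1 per condition and without a test, gave a log2 ratio below 0 for all 65 main subunits with at least 20 CPM, with a median of -0.45 against -0.05 for all genes. The median ratio was -0.55 in complexes III and V, -0.41 in complexes II and IV and -0.35 in complex I. Complex I thus changed least by Illumina, whereas complex II did by nanopore (median -0.30). UQCR-6.4 was again the lowest, at 21.2 CPM in 120 h infested blood and 42.9 CPM in 96 h infested blood (-0.87).

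Other cell types' markers moved with the same contrast. The 13 muscle markers, of a tissue rich in mitochondria, summed to 655 to 1427 CPM at 120 h infested and 1239 to 3025 CPM at 96 h infested, all 13 with a read in each library, and 10 of 13 were lower and 1 higher. By Illumina they summed to 886 CPM at 120 h infested and 1013 CPM at 96 h infested. The 12 midgut markers, 7 to 8 of them with a read at 120 h infested and 8 to 11 at 96 h infested, summed to 26.2 to 55.2 CPM at 120 h infested and to 2674 to 3715 CPM at 96 h infested, and all 8 tested were lower. Lamellocyte markers summed to 4542 to 8211 CPM at 120 h infested and 2443 to 2702 CPM at 96 h infested, plasmatocyte markers to 1582 to 2098 CPM at 120 h infested and 2831 to 3793 CPM at 96 h infested. The 4 crystal cell markers summed to 615 to 1429 CPM at 120 h infested and 1488 to 3504 CPM at 96 h infested. The part of any of these cells in the change of the subunits was not tested. The 7 fat body markers summed to 586 to 3442 CPM at 120 h infested and 1446 to 2064 CPM at 96 h infested, which overlap.

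Related mitochondrial genes were lower in part. Of 12 citrate cycle and pyruvate dehydrogenase genes, 7 were lower at 120 h infested and none higher: kdn (citrate synthase, -1.04), Idh3a (-0.85), Pdha (-0.84), Fum1 (-0.75), Mdh2 (-0.75), Idh3g (-0.58) and mAcon1 (-0.54). Of 7 carrier and pore genes tested, sesB, the ATP/ADP carrier (-0.80), and porin (-0.58) were lower. Of 14 genes of assembly and electron transfer tested, 3 were lower: mtSSB, which binds mitochondrial DNA (-0.59), sea, a citrate carrier (-0.45), and wal, of the electron transfer flavoprotein (-0.59). The testis cytochrome c, Cyt-c-d, was higher. Of 4 genes of peroxide and superoxide removal, Prx3 was lower (-0.44). None of 7 genes of mitochondrial gene expression and its regulators was called. None of the 13 mitochondrially encoded subunits passed, at a median of -0.20, but they varied widely between libraries, from 15013 to 21083 CPM at 120 h infested and from 19079 to 28076 CPM at 96 h infested. Comparisons between these blood groups share libraries, the infested ones here also standing in the tests of infestation.

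In blood of normal larvae, 120 h over 96 h, 2 of 74 members passed, both lower, against 4.27% of all genes called. Cyt-c-p, the somatic cytochrome c, had 209 and 197 CPM at 120 h normal and 619 and 542 CPM at 96 h normal, so that the groups were far apart (log2 change -1.51 ± 0.33 SE, adjusted p = 0.018, edgeR). UQCR-6.4 had 462 and 431 CPM at 120 h normal and 717 and 682 CPM at 96 h normal (-0.64 ± 0.15, adjusted p = 0.0279, edgeR). Of the 65 main subunits, 58 had a log2 change below 0, at a median of -0.25, while the median of all genes was 0.10. With 2 libraries a group, leaving out any of the 4, where the lone library is assumed to vary like the other groups, left neither called: adjusted p was 0.0666 to 0.141 for Cyt-c-p and 0.127 to 0.214 for UQCR-6.4 (edgeR). In a fit of these 2 groups alone 12 members were lower, and with DESeq2 6 were. The Illumina ratio of Cyt-c-p was -2.56 (26.4 CPM in 120 h normal blood, 179.9 CPM in 96 h normal blood). That of UQCR-6.4 had the opposite sign, 0.16 (35.4 CPM in 120 h normal blood, 31.1 CPM in 96 h normal blood). The 120 h normal library is the one that stood apart, and the median ratio was -0.28 over main subunits and 0.32 over all genes. The 13 muscle markers summed to 737 to 746 CPM at 120 h normal and 3647 to 4196 CPM at 96 h normal, and 10 of 13 were lower; by Illumina they summed to 573 CPM at 120 h normal and 878 CPM at 96 h normal, and their part in the change of Cyt-c-p was not tested. Fat body markers summed to 3457 to 4098 CPM at 120 h normal and 449 to 1300 CPM at 96 h normal (4 of 7 higher). Crystal cell markers summed to 4617 CPM in each library at 120 h normal and 9317 to 9946 CPM at 96 h normal (none of 4 called), and the part of either was not tested.

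Infestation in blood at 120 h gave 1 called member of 74, against 19.4% of all genes. ATPsynE had 401, 453 and 471 CPM in infested blood and 655 and 627 CPM in normal blood, with no overlap (-0.53 ± 0.13, adjusted p = 0.0118, edgeR). The call was lost without infested replicate 1 (adjusted p = 0.0601, edgeR), normal replicate 2 (0.115) or normal replicate 3 (0.073). It was also lost on plain library totals (0.131), with no filter on low counts (0.179) and in a fit of the groups compared alone (0.0916, edgeR). Its log2 change stayed below 0 in each of these, and was -0.58 with replicates 2 and 3 summed, which leaves 1 normal sample. At 120 h, plasmatocyte markers summed to 1582 to 2098 CPM in infested blood and 4637 to 4731 CPM in normal blood (6 of 7 lower). Midgut markers summed to 26.2 to 55.2 CPM in infested blood and 562 to 611 CPM in normal blood (6 of 8 lower), and crystal cell markers to 615 to 1429 CPM in infested blood and 4617 CPM in each normal library (3 of 4 lower). The part of these cells was not tested. Before adjustment, 15 of the 65 main subunits tested had p below 0.05. The share of all genes below it was at least the 19.4% that passed after adjustment, so this count is not read as an excess. Complex by complex, all 11 main subunits of complex V and all 8 of complex IV had a log2 change below 0, with medians of -0.34 and -0.17, while the median was -0.24 in complex I, -0.07 in complex III and 0.15 in complex II. On plain library totals the median of main subunits was 0.01, where that of all genes was 0.17. Relative to all genes it thus lay lower under both scalings of the nanopore counts. The Illumina pair gave the opposite order, with a median log2 ratio of -0.09 for main subunits and -0.22 for all genes. Its normal library is the one that stood apart. The members with the smallest p in the other complexes did not pass: ND-B12 (-0.44, adjusted p = 0.0697), SdhD (0.46, 0.0888), COX7C (-0.40, 0.158), Cyt-c-p (0.60, 0.188) and UQCR-14 (-0.23, 0.324; edgeR).

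Cyt-c-p lay lower at 120 h than at 96 h in infested blood (-0.44, not called) and in normal blood, as most main subunits did. With infestation in blood at 120 h its log2 change was above 0 and did not pass, while the median of main subunits was -0.21. It had 164, 410 and 347 CPM in 120 h infested blood, with replicate 1 far below the others and below both normal libraries, against 209 and 197 CPM in 120 h normal blood. The Illumina libraries held 127 CPM in 120 h infested blood and 26.4 CPM in 120 h normal blood (log2 ratio 2.07), the largest ratio among main subunits in that pair. That normal library is the one that stood apart. The difference between the infestation effects at 120 h and at 96 h was 1.07 ± 0.42 for Cyt-c-p and did not pass (adjusted p = 0.233, edgeR).

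At 96 h, 24 h after infestation, no main subunit was called in either tissue. In lymph glands 0 of 74 members passed, against 5.13% of all genes, and 3 had p below 0.05 before adjustment (edgeR); DESeq2 called 1, RFeSP. The smallest p was that of RFeSP, with 513, 506 and 428 CPM in infested glands and 385, 332 and 317 CPM in normal glands, groups that do not overlap (0.48 ± 0.14, adjusted p = 0.0679, edgeR). The next was UQCR-C2, a core protein of complex III, with 460.5, 348 and 329 CPM in infested glands and 312, 245 and 188 CPM in normal glands (0.61 ± 0.20, adjusted p = 0.0918, edgeR). The other complexes' smallest adjusted p values were 0.276 (ND-19, 0.37), 0.400 (ATPsynCF6, 0.24), 0.462 (SdhB, 0.23), 0.524 (Cyt-c-p, 0.38) and 0.655 (COX6B, -0.17; edgeR). In blood at 96 h, 1 of 74 members passed, against 4.97% of all genes, and it was a paralog, ATPsynepsilonL. Among main subunits UQCR-C2 again had the smallest p, at 352, 295 and 299 CPM in infested blood and 214 and 215 CPM in normal blood (0.56 ± 0.23, adjusted p = 0.199, edgeR). ATPsynC (-0.56), SdhC (0.38), ND-PDSW (0.28), Cyt-c-p (-0.47) and COX5B (0.26) led their complexes and did not pass, with adjusted p of 0.253 to 0.472 (edgeR). The median of the 65 main subunits was 0.08 in each tissue, and 0.28 in glands and 0.30 in blood on plain library totals, which moved the median of all genes to 0.16 and 0.20. By complex, on the TMM scale, the median was 0.27 in glands and 0.26 in blood for complex III, and 0.21 and 0.32 for complex II. In complexes I, IV and V it was 0.03 to 0.08 in either tissue.

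Blood and lymph gland at 96 h differed little in these genes. Blood over lymph gland, 1 of 74 members was called in normal larvae, against 7.50% of all genes, and 0 of 74 in infested larvae, against 11.0% (4 members had p below 0.05 before adjustment, edgeR; DESeq2 called 0). The median log2 difference of main subunits was -0.06 in each. No member was called for a difference in infestation effect between blood and gland, 0 of 74 against 0.283% of all genes. Before adjustment 1 p was below 0.05 (edgeR), and DESeq2 called 0. So few calls over all genes do not show that the effects were equal. The infestation effect in blood at 120 h less that at 96 h was called for 1 member, again ATPsynepsilonL, against 1.94% of all genes, although 62 of 65 main subunits had a difference below 0, at a median of -0.31 where that of all genes was -0.03. In the Illumina pair of infested larvae all 65 main subunits lay lower in blood than in gland (median log2 ratio -0.38, all genes -0.17), where the replicated nanopore libraries had a median of -0.06. Short-read lymph gland data came at least in part from an earlier data set, per the labels.

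In the single library of normal glands at 120 h, the main subunits lay near their 96 h levels. The 64 with at least 20 CPM on plain library totals had a median log2 ratio of -0.18, where all genes had -0.25. SdhA was lowest relative to 96 h (42.3 CPM at 120 h, mean 105 CPM at 96 h, -1.22) and COX6B highest (318 CPM at 120 h, mean 182 CPM at 96 h, 0.79). The kit differed between the ages, so kit and age cannot be told apart.

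The paralogs had more reads where the main subunits were lower. In blood of infested larvae, the 24 paralogs summed to 163, 202 and 196 CPM at 120 h and to 12.1, 5.90 and 4.36 CPM at 96 h, and between 21 and 23 of them had a read at 120 h, against 1 to 7 at 96 h. In blood of normal larvae they summed to 54.6 and 69.3 CPM at 120 h and to 23.3 and 21.0 CPM at 96 h. In 96 h glands they summed to 0.594, 0 and 2.12 CPM when infested and to 3.18, 5.85 and 0.917 CPM when normal, and in the 120 h gland library to 1.77 CPM. Nanopore reads of paralogs thus lay mostly in blood, with the highest sums at 120 h in infested larvae. All 8 paralogs tested were higher at 120 h in infested blood, but they passed the filter on low counts on the strength of those libraries, so their shared direction lends no support of its own.

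COX7CL, a copy of a small cytochrome c oxidase subunit, had 18.7, 17.1 and 24.0 CPM at 120 h infested and no read at 96 h infested, at least 22.3-fold higher against a limit of 3 counts over the 96 h group (adjusted p = 0.000608, edgeR). UQCR-14L had 9.37, 11.8 and 15.97 CPM at 120 h infested and no read at 96 h infested, at least 13.9-fold higher (adjusted p = 0.00243, edgeR). COX4L had 10.4, 21.0 and 20.5 CPM at 120 h infested and 0, 3.54 and 0 CPM at 96 h infested. The log2 change was 3.38 ± 0.82 for COX4L, 5.20 ± 0.99 for COX7AL, 4.40 ± 1.02 for ATPsynGL, 4.11 ± 0.83 for COX5BL, 3.68 ± 0.86 for ATPsynCF6L and 3.46 ± 0.69 for ATPsynepsilonL, all past the threshold (edgeR). Fitted changes of genes near 0 depend on the prior count. The other paralogs with a read were at most 11.8 CPM in any nanopore library: those of complex I (ND-20L, ND-24L, ND-49L, ND-51L1, ND-51L2, ND-B14.5AL), complex II (SdhAL, SdhCL), complex III (UQCR-11L, UQCR-6.4L), complex IV (COX6AL, COX6AL2, COX6CL, COX7AL2) and complex V (ATPsynbetaL).

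ATPsynepsilonL differed from the other paralogs in its levels in 96 h blood. It had 10.4, 17.1 and 12.6 CPM in 120 h infested blood, 3.67 and 4.52 CPM in 120 h normal blood, 2.60, 0.590 and 0 CPM in 96 h infested blood and 9.71 and 10.5 CPM in 96 h normal blood. At 96 h it was lower in infested blood (-3.04 ± 0.81, adjusted p = 0.0428, edgeR), a call lost without normal replicate 2 (0.169) or 3 (0.223) and without infested replicate 2 (0.148) or 3 (0.0908). In normal larvae at 96 h it was higher in blood than in gland, where the 3 gland libraries held 0, 0.836 and 0 CPM (4.70 ± 0.96, adjusted p = 0.00597, edgeR), a call lost without blood replicate 3 (0.0606). These values rest on 0 to 8 reads a library at 96 h.

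The male germline markers moved with the paralogs. Their 15 genes (Mst84Da, Mst87F, dj, ocn and others, of spermatogenesis) summed to 512 to 837 CPM in 120 h infested blood with 13 of 15 detected, 200.5 to 216 CPM in 120 h normal blood, 0.590 to 26.0 CPM in 96 h infested blood, 47.2 to 54.4 CPM in 96 h normal blood and at most 8.36 CPM in 96 h glands. In infested blood all 12 tested were higher at 120 h than at 96 h. They passed the filter on low counts largely through the 120 h blood libraries, so this shared direction lends no support of its own. Cyt-c-d, the testis cytochrome c, had 14.6, 25.0 and 19.4 CPM at 120 h infested, 4.20 and 3.01 CPM at 120 h normal, and no read in the 11 libraries at 96 h. Its log2 change between the infested ages passed as well (adjusted p = 0.000879, edgeR), though Cyt-c-d too passed the filter through the 120 h libraries. The Illumina libraries gave the opposite order at 120 h. The paralogs summed to 106 CPM in 120 h infested blood and 604 CPM in 120 h normal blood, and the male germline markers to 481 CPM in 120 h infested blood and 2435 CPM in 120 h normal blood. All 11 paralogs with at least 20 CPM were lower in the infested Illumina library (median log2 ratio -1.71). These 11 reached the 20 CPM limit through the normal library, so their shared direction lends no support of its own. COX4L stood at 24.3 TPM in infested and 149 TPM in normal 120 h blood, and COX6CL at 11.7 TPM in infested and 89.6 TPM in normal 120 h blood. The part of male germline tissue in the paralog levels was not tested.

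**Figure D4:**
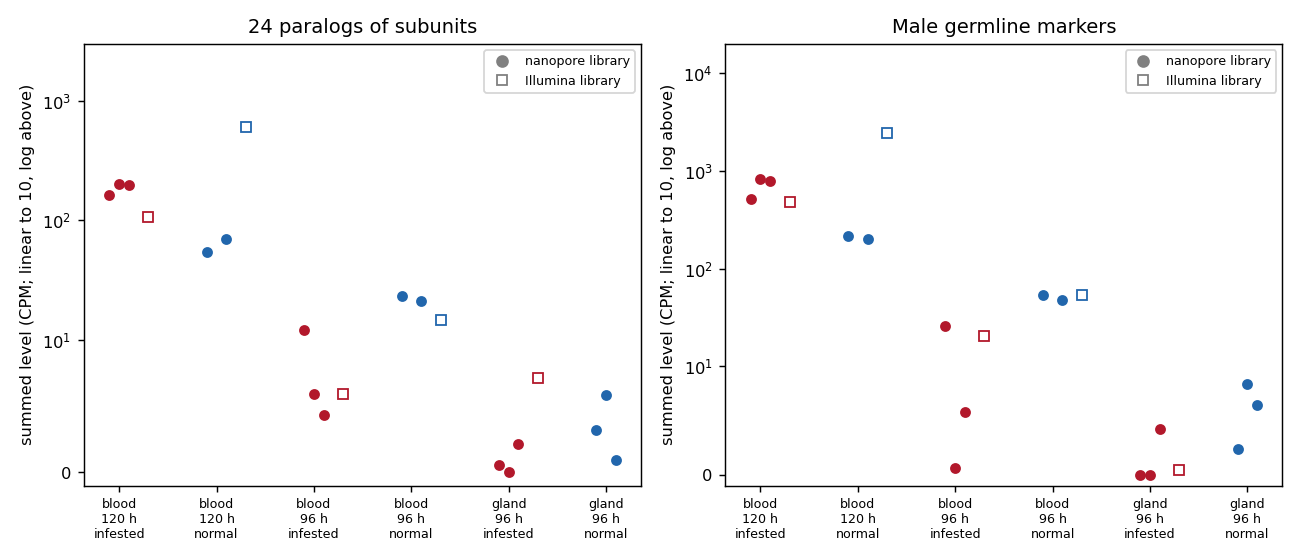
Summed level (CPM; linear to 10, log above) of the 24 paralogs and of the 15 male germline markers in each nanopore library (filled circles, TMM-scaled) and Illumina library (open squares, plain totals); red is infested and blue normal. In both sets the nanopore libraries are highest in 120 h infested blood, at 163 to 202 CPM for the paralogs, while the highest Illumina library is that of 120 h normal blood, at 604 CPM.

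For 3 main subunits the replicate number went with the level in every group. ND-MLRQ, ND-AGGG and UQCR-11 were highest in replicate 3 in all 6 groups, 3 of the 65 main subunits tested (4.62%), against 1.54% of all genes. ND-AGGG had 464, 576 and 812 CPM in 120 h infested blood (replicates 1, 2 and 3), 751 and 1096 CPM in 120 h normal blood (replicates 2 and 3), 703, 654 and 1019 CPM in 96 h infested blood, 713 and 859 CPM in 96 h normal blood, 612, 596 and 1025 CPM in infested glands and 749.6, 728 and 1239.5 CPM in normal glands. Without a term for the replicate number none of the 3 was called in any comparison. In infested blood all 3 were lower at 120 h than at 96 h in each same-numbered pair, and all 3 passed there with the replicate block (above). No label says what replicates of one number share.

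**Figure D5:**
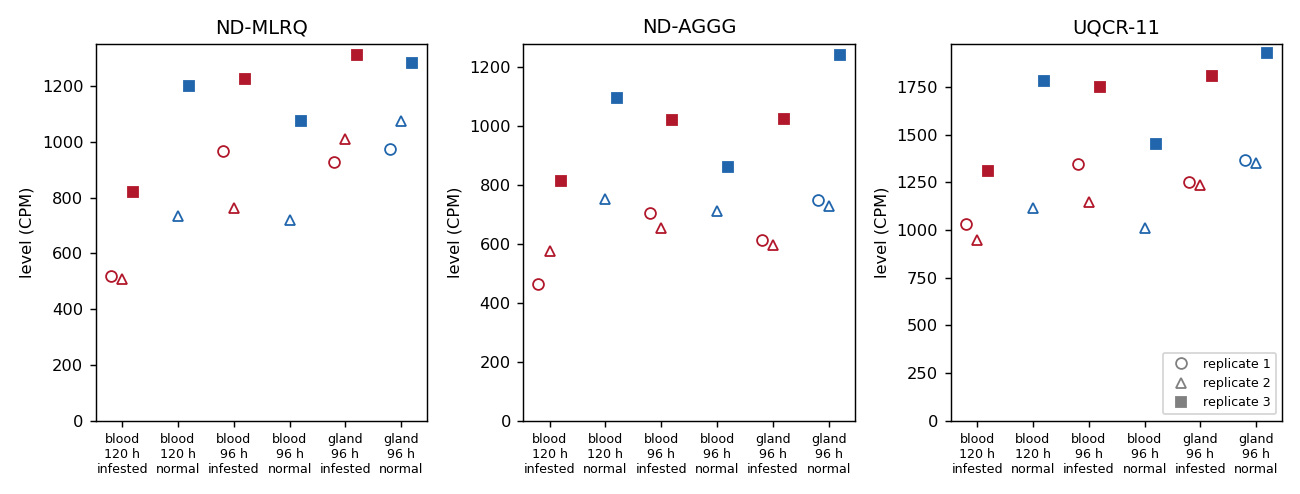
Level (CPM) of ND-MLRQ, ND-AGGG and UQCR-11 in each nanopore library by group, with replicate 3 filled and replicates 1 and 2 open; red is infested and blue normal. Replicate 3 is the highest point of its group in all 6 groups for the 3 genes.

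The transcript tables held 220 transcripts of the members, among them 12 alternative-end transcripts that the authors added for 9 genes. UQCR-14 gave its alternative-end form 53.8 to 59.5% of its estimated counts in all 16 nanopore libraries, with no separation of the groups, and 71.7 to 84.5% by Illumina. UQCR-6.4 has 2 transcripts, and the minor one, FBtr0329864, took 32.1 to 33.0% in 120 h infested blood, 19.2 to 19.5% in 120 h normal blood, 19.5 to 23.4% in 96 h infested blood, 17.0 to 20.4% in 96 h normal blood, 20.2 to 22.1% in infested glands and 13.6 to 20.1% in normal glands. The 3 libraries of 120 h infested blood were thus apart from the other 13, with 96.5 to 99.1% of the gene's reads assigned to either transcript. By Illumina the same transcript made up 3.08% in 120 h infested blood, 4.00% in 120 h normal blood, 2.68% in 96 h infested blood, 4.06% in 96 h normal blood and 2.82% in infested glands, so the shift was not seen there. UQCR-6.4 was not the member whose shares differed most, as its group means spanned 16.4 percentage points. They spanned 33.4 points in ND-39, 31.9 in ATPsynE, 29.2 in ND-13A and 24.6 in ND-15. In ND-13B they spanned 23.5 points, in ND-ASHI 22.6 and in ND-B12 16.6. UQCR-Q spanned 67.8 points, but as little as 16.4% of its reads was assigned to a transcript, so its shares were not compared. No test was run on transcripts.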

How the data were processed

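For each nanopore library the deposited tables hold counts of reads in whole numbers for genes and expected (estimated) counts for transcripts. The Illumina tables hold, per the file headers, expected counts and TPM of genes and, as a percent, each isoform's part of its gene. Summary lines of reads not given to a gene, ambiguous (0.503 to 1.31%) or outside genes (0.383 to 0.788%), were left out. The submitters' processing notes list, with no role, minimap2 2.17-r941 and RSEM 1.3.1, as well as STAR 2.5.3a, FastQC 0.11.8 and StringTie 2.1.3. What build the reads were mapped to, and whether nanopore counting used strand, is not given in the sources used here. Counts of near-identical paralogs are uncertain, as reads may have been divided between copies.

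Nanopore gene counts of the 16 SQK-PCB109 libraries were compared by a quasi-likelihood test (edgeR 4.0.16 under R 4.3.3; TMM scaling, filterByExpr with minimum count 10, Benjamini-Hochberg over 7076 genes, threshold 0.05) in 1 fit of 6 groups without covariates and 9 comparisons. The fit was tested on simulated counts. Single libraries were compared as log2 ratios of CPM + 5 for members with at least 20 CPM in the higher one. The limit of 3 counts covers counting error only, while the SE and SD values also hold the spread between libraries. Alternatives were a replicate block, RLE and plain library totals, no filter, DESeq2 1.42.0, limma 3.58.1 (voom), only the groups compared, summed blood replicates 2 and 3, left-out libraries and, added after seeing the data, scaling from genes other than the members.

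Deviations of same-numbered libraries from their group means correlated weakly, at 0.295, 0.168 and 0.133, between 120 h and 96 h infested blood. Differently numbered libraries were not compared, so these values do not settle whether the numbers pair the groups. With the replicate block all 50 called members there stayed called. Members and lists were chosen with earlier results of these data known. Named members were those called (the 12 largest where more were), the 2 highest of each complex, the smallest p of each complex under infestation, paralogs with a read, and Sdhaf3. Of the lists' symbols, 3 were matched by a synonym and 1 was not matched.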

Additional observations from a re-analysis of the deposited data

Results flagged for a closer look

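ATPsynepsilonL, a paralog of an ATP synthase subunit, was the 1 member whose infestation effect in blood differed between ages. The infestation effect at 120 h less that at 96 h was 4.79 ± 1.05 on the log2 scale (adjusted p = 0.0297, edgeR quasi-likelihood interaction), with a higher level in infested than in normal blood in 3 of 3 libraries at 120 h and a lower one in 3 of 3 at 96 h. The adjusted p stayed below 0.05 when blood 96 h infested replicate 1 or blood 120 h infested replicate 1 was left out and was 0.0538 to 0.147 without each of the other 8 libraries. The male germline markers also summed to more in infested than in normal blood at 120 h and to less at 96 h, and their part was not tested.

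SdhBL, a paralog of the succinate dehydrogenase iron-sulfur subunit, had no read in any of the 17 nanopore libraries. It stood at 58.0 TPM in the Illumina library of 120 h normal blood and at 9.74 TPM in that of 120 h infested blood. The normal library is the one that stood apart. Every other paralog but COX7AL2 also had its highest Illumina level there, such as COX4L at 149 TPM and COX6CL at 89.6 TPM.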

How the results depend on the processing

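The block by replicate number, with 2 members called in glands at 96 h, 0 in blood at 96 h, 15 in blood at 120 h (14 lower), 4 with age in normal blood, 2 and 1 between tissues in normal and infested larvae and 2 for the effect at 120 h against 96 h, moved these counts; with age in infested blood it gave 59 against 50. Same-numbered pairs did not correlate above 0.1 throughout in the other comparisons, so the block there rests on a number alone. In infested blood the correlations were weak as well. ND-MLRQ, ND-AGGG and UQCR-11 were among the 14 lower at 120 h. UQCR-11 was called between tissues in normal larvae and ND-MLRQ for the effect at 120 h against 96 h. Infestation in blood at 120 h, with 1 member called, gave 3 under RLE size factors (2 higher, 1 lower), 3 with DESeq2 (all lower) and 8 with limma voom (6 higher, 2 lower), ATPsynE among the lower ones each time. ATPsynE was lost on library size only, where the 2 called were COX7AL and Cyt-c-p, both higher, with no filter on low counts (2, COX7AL and COX7CL, both higher), with only the groups compared (6, all higher paralogs) and with blood replicates summed (0). Infestation in blood at 96 h gave 0 on library size only, with DESeq2, with only the groups compared and with summed replicates, and in glands library size only gave 1 and DESeq2 1. Age in normal blood gave 1 on library size only, 1 with no filter, 6 with DESeq2, 12 with only the groups compared and 0 when summed. Age in infested blood gave 13 when summed (7 higher, 6 lower). Tissue in normal larvae gave 0 with only the groups compared and 0 when summed, and the effect at 120 h against 96 h gave 2 with no filter, 2 with DESeq2 and 0 when summed. The cause of these shifts was not tested, except that summing leaves fewer samples. It leaves 2 in each infested blood group and 1 in each normal one. Losses on summing in comparisons with normal blood are thus not read as a result. No called member reversed its direction under the alternatives run.

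Leaving out 1 library of a comparison gave 39 to 48 called members for age in infested blood, 0 for age in normal blood, 0 to 3 for infestation in blood at 120 h, 0 to 1 in blood and in glands at 96 h, 0 to 1 between tissues in normal and in infested larvae, 0 to 2 for the effect at 120 h against 96 h and 0 for that in blood against gland. The summed level at 120 h infested over 96 h infested was 0.668, and 0.671 on plain totals; the Illumina median was -0.45 with a pseudocount of 5 CPM and -0.46 with 1 CPM. Promoter motifs were planned and not run, since no promoter sequences were used here. Depth limits the paralogs most: a count of 0 is uninformative below a few CPM in the shallowest libraries.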
